A study of Homo sapiens with 6 samples.

Results

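Intermediate filaments are the rope-like part of the cytoskeleton, and 10 of their genes were followed here in SW480 cells, a human colorectal adenocarcinoma line, after knockdown of the transcription factor ZEB1. The 10 genes are the keratins KRT7, KRT8, KRT10, KRT18, KRT19, KRT20, KRT23 and KRT80, the mesenchymal filament gene VIM (vimentin) and NES (nestin). They were taken by gene symbol from a list of 32029 genes, and each had 1 row there. All 10 passed the filter on low counts, as did 14996 genes in all. RNA was sequenced 48 h after transfection in 3 libraries of cells given a control small interfering RNA (siNC, labelled WT for genotype) and in 3 libraries of cells given siRNA against ZEB1 (siZEB1, labelled ZEB1 knockdown). Both groups are SW480, so the data describe 1 cell line, and how many siRNA sequences were used is not given in the sources used here. The comparison asks which genes change when ZEB1 is lowered.

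Keratins form filaments as obligate pairs of 1 acidic type I chain and 1 basic or neutral type II chain, and the pair KRT8 (type II) and KRT18 (type I) is the main filament of simple epithelia such as the colonic lining. Vimentin and nestin are type III and type VI chains, usually linked to mesenchymal and progenitor cells. ZEB1 is a zinc finger repressor of epithelial genes that binds E-box sequences, and a change from keratin to vimentin filaments is a textbook sign of the epithelial-mesenchymal transition.

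Libraries held 19040636 to 22357633 counted reads. Levels are given as CPM, reads of the gene relative to the library's reads in genes that passed the filter, after scaling by edgeR's TMM factors. ZEB1 itself lay at 58.6, 57.0 and 47.1 CPM in the siNC libraries and at 7.20, 6.86 and 8.46 CPM in the siZEB1 libraries, a log2 fold change of -2.85 ± 0.11 (SE, n = 3 per group, adjusted p = 4.85e-12, edgeR quasi-likelihood test). Replicates of a group differed by more than sampling noise, with a chi-square of 2.27 to 9.58 per degree of freedom. This spread does not show whether they came from separate cultures. Of all genes tested, 2849 were called higher in siZEB1 (19%) and 3186 lower (21.2%) at an adjusted p under 0.05, and the groups did not overlap for 7427 genes (49.5%). In bulk RNA, fewer cells of a type and less RNA per cell cannot be told apart. Of the colon epithelial markers, EPCAM rose from 54.7 ± 2.29 to 453.6 ± 14.1 CPM, CDH1 from 1.86 ± 0.532 to 30.4 ± 2.01 CPM (SD, n = 3) and VIL1 from 4.08 ± 0.503 to 20.7 ± 1.49 CPM, whereas CDX2 fell from 102.5 ± 7.08 to 41.8 ± 2.66 CPM and CEACAM5 had 0 reads in 5 of the 6 libraries and 1 read in the other. Summed over 5 fibroblast marker genes with a row, the level was 13.4 to 14.9 CPM in siNC and 13.3 to 15.3 CPM in siZEB1, with LUM at 0 reads in every siNC library. Of these genes, PDGFRB rose from 3.98 to 5.33 CPM (edgeR adjusted p = 0.0281), and COL1A1 was at 10.2 and 8.70 CPM (adjusted p = 0.149). The 4 leukocyte marker genes with a row summed to at most 1.41 CPM and the 2 endothelial ones to at most 2.72 CPM in any library.

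The 250 bases before the transcription start are shown for NES, VIM and KRT8, because ZEB1 is known to bind the letters CACCT, which read AGGTG on the other strand. NES was lower in siZEB1, and no change passed the test for VIM and KRT8. RefSeq windows (GRCh38.p14) were matched for 5 of the 10 members, these 3 and KRT10 and KRT20. In the sequences, written 5′ to 3′ on the gene's strand, capitals mark these letters on either strand. The NES window is chr1:156677408-156677657 (minus strand), the VIM window chr10:17227991-17228240 (plus strand) and the KRT8 window chr12:52926470-52926719 (minus strand).
NES: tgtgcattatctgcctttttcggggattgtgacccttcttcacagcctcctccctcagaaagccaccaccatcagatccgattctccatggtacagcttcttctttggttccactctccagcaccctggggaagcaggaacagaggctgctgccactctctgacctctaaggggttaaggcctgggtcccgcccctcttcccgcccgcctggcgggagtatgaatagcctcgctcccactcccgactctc
VIM: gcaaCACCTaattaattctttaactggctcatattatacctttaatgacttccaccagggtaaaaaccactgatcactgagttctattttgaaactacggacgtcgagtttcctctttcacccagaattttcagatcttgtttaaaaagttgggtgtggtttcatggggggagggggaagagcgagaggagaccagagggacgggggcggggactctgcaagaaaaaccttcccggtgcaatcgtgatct
KRT8: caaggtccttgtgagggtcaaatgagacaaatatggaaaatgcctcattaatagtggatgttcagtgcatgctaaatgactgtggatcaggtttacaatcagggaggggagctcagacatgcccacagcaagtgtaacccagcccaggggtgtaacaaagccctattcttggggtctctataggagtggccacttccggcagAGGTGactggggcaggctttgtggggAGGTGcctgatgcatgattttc
The KRT8 window holds the letters at 48 and at 22 bases before the start, the VIM window at 246 bases, and the KRT20 window at 94 bases. The NES and KRT10 windows do not hold them. The same letters are in 45.4% of 35116 RefSeq windows of this length, and the longer E-box CAGGTG, which reads CACCTG on the other strand and so overlaps the shorter letters, is in none of the 5 windows against 17.5% of all. The RefSeq start used for KRT8 is 1 of several, since 1 of its 17 GENCODE transcripts begins within 50 bases of it, and the same holds for VIM with 1 of 10 transcripts. A match of letters is a description and not a measured site.

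Across the 10 genes, 3 keratins (KRT19, KRT80 and KRT10) were called higher in siZEB1, NES was called lower, and 6 genes were not called. That is 3 of 10 higher beside 19% of all tested genes, and 1 of 10 lower beside 21.2%. The groups did not overlap for KRT19, KRT80 and NES, 3 of 10 genes beside 49.5% of all genes. The median log2 fold change was 0.06 over the 10 genes and -0.0055 over all genes tested. With the study's limits of a fold change over 1.5 and an unadjusted p under 0.05, KRT19 alone was called higher in the main fit (7.21% of all tested genes were). No member was called lower (9.35% of all were). With an unadjusted p under 0.001 the members' counts were the same, beside 4.52% and 6.7% of all genes. KRT80 passed the fold limit with RLE size factors and with DESeq2. Except for KRT10, the call of every member at an adjusted p under 0.05 was the same under the 6 other fits (size factors, filters, DESeq2, replicate block) that tested it and with each library left out in turn.

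**Figure D1:**
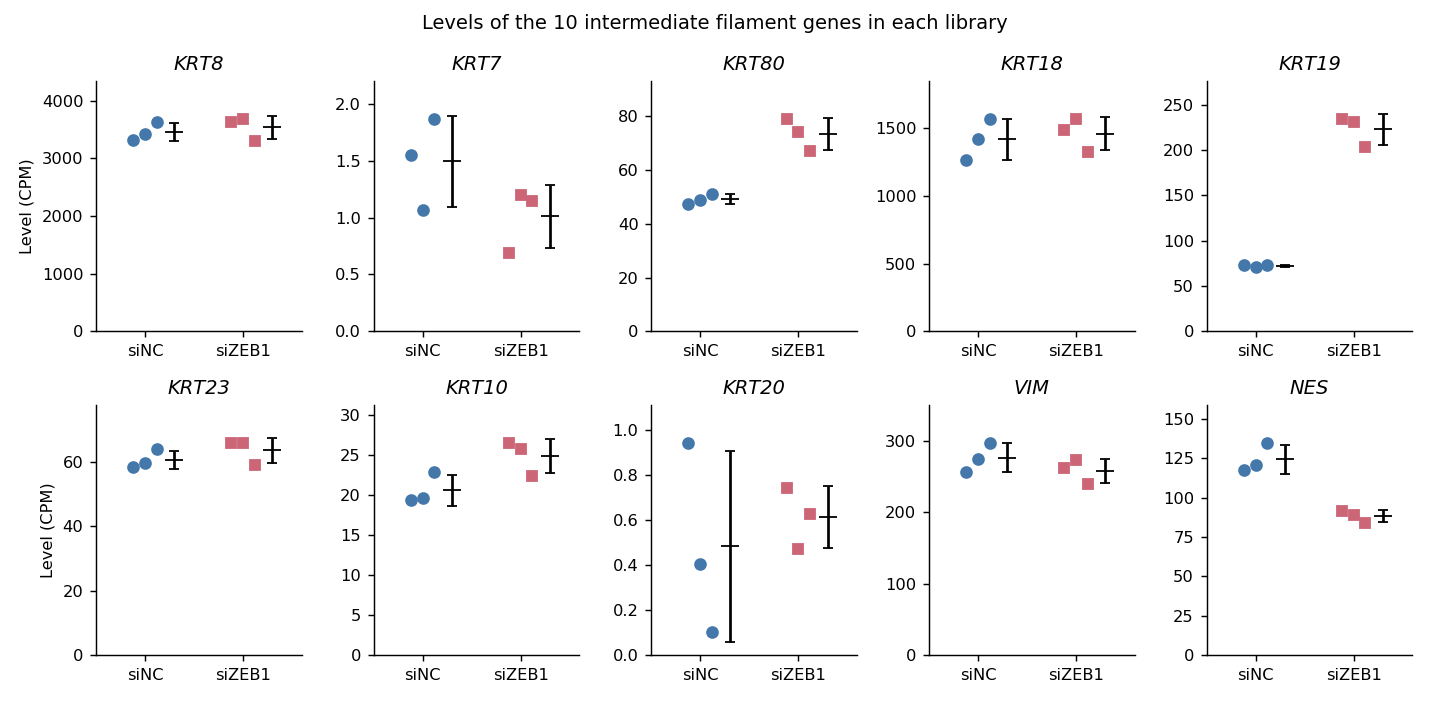
Level (CPM, axes from 0) of each of the 10 genes in the 3 siNC libraries (circles) and the 3 siZEB1 libraries (squares), in replicate order from left to right, with the group mean and SD beside them. The groups are apart for KRT19, KRT80 and NES and overlap for the other 7 genes.

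KRT8 and KRT18, the simple-epithelial pair, were the most abundant members, and neither passed the test between the groups. KRT8 (chr12:52897187-52949954, minus strand, GRCh38 as in GENCODE 29) lay at 3320.0, 3414 and 3631 CPM in siNC and at 3620.2, 3676 and 3304 CPM in siZEB1. The ranges overlap over most of their length, and siZEB1 replicate 3 was the lowest of all 6 libraries. The log2 fold change was 0.03 (SE 0.05, 95% interval -0.08 to 0.14, edgeR adjusted p = 0.650).

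KRT18 (chr12:52948871-52952901, plus strand) is the type I partner of KRT8. Its level was 1267, 1421 and 1567 CPM in siNC and 1490.0, 1566 and 1324 CPM in siZEB1. The lowest and the highest library were both siNC libraries. The log2 fold change was 0.04 (SE 0.07, 95% interval -0.11 to 0.19, adjusted p = 0.677), and it was negative without siNC replicate 1 (-0.03) and without siZEB1 replicate 2 (-0.01), in neither case past the threshold. KRT8 and KRT18 lie beside each other on opposite strands, and 16.3% of KRT18's exonic bases also lie in exons of KRT8 (7.63% of KRT8's exonic bases lie in KRT18). The strand setting of the counting is not given in the sources used here, so reads of the shared bases cannot be told apart. Exons of other genes on the opposite strand also cover 7.67% of the exonic bases of KRT7, 6.41% of KRT23 and 2.61% of KRT10, and none of KRT19, KRT20, KRT80 and NES.

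Both genes have many processed copies in the genome. The listed KRT8 pseudogenes held 0.381% to 0.464% of the reads of KRT8 and its pseudogenes together, and the KRT18 pseudogenes 0.0462% to 0.126%. No 100-base stretch of the longest coding transcript of any of the 10 members occurs exactly in a transcript of another gene. Shorter matches and matches with differing bases were not searched. Of the copies and antisense genes, KRT8P3, KRT8P12, KRT8P33 and VIM-AS1 were tested, and none was called.

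KRT19 showed the largest change of the 10 genes. KRT19 (chr17:41523617-41528308, minus strand) is the smallest type I keratin, without the tail domain of the others, and is found in simple and ductal epithelia. Its level was 72.8, 70.96 and 73.1 CPM in siNC and 234, 231 and 203 CPM in siZEB1. Every siZEB1 library was above every siNC library, and the siNC libraries lay close together. The level was 3.08-fold higher in siZEB1 (log2 fold change 1.62, SE 0.07, 95% interval 1.48 to 1.77, adjusted p = 1.11e-11), and 1.59 to 1.69 on the log2 scale with each library left out in turn.

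KRT80 (chr12:52168996-52192000, minus strand), a type II keratin of many epithelia, also rose. Its level was 47.5, 49.0 and 51.0 CPM in siNC and 79.0, 74.3 and 67.2 CPM in siZEB1. The groups do not overlap, and siZEB1 replicate 3 was again the lowest of its group. The fold change was 1.49 (log2 0.58, SE 0.07, 95% interval 0.42 to 0.74, adjusted p = 8.38e-06), which lies just under the study's limit of 1.5.

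KRT10 (chr17:40818117-40822595, minus strand) is the type I keratin of differentiating epidermal layers. It lay at 19.3, 19.6 and 22.9 CPM in siNC and at 26.5, 25.7 and 22.4 CPM in siZEB1. The groups overlap, since siNC replicate 3 was above siZEB1 replicate 3. The log2 fold change was 0.28 (SE 0.09, 95% interval 0.08 to 0.48, edgeR adjusted p = 0.0281). The call was lost without siNC replicate 1 (adjusted p = 0.0946), siNC replicate 2 (0.115), siZEB1 replicate 1 (0.132) or siZEB1 replicate 2 (0.0941), and adjusted p ranged from 0.00346 to 0.132 over 12 other settings.

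The remaining keratins did not pass the test. KRT23 (chr17:40922696-40937634, minus strand), a type I epithelial keratin, lay at 58.4, 59.7 and 64.0 CPM in siNC and at 66.0, 65.9 and 59.0 CPM in siZEB1 (log2 fold change 0.07, SE 0.07, 95% interval -0.08 to 0.22, adjusted p = 0.473). KRT7 (chr12:52232520-52252186, plus strand), a type II keratin of glandular ducts, had low counts, with 33, 24 and 36 reads in siNC and 13, 23 and 22 reads in siZEB1. Its log2 fold change was -0.55 with a wide 95% interval of -1.20 to 0.10 (adjusted p = 0.167). KRT20 (chr17:40875941-40885227, minus strand), the type I keratin of mature enterocytes and goblet cells, had 20, 9 and 2 reads in siNC and 14, 9 and 12 reads in siZEB1. Its log2 fold change was 0.32 with a 95% interval of -0.78 to 1.41 (edgeR adjusted p = 0.664), and the sign turned without siNC replicate 3 (-0.13).

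VIM (chr10:17228259-17237593, plus strand), whose product replaces keratin filaments in mesenchymal cells, was not called. Its level was 257, 275 and 297 CPM in siNC and 262, 273 and 239.6 CPM in siZEB1. The groups overlap, and the highest library was siNC replicate 3 and the lowest siZEB1 replicate 3. The log2 fold change was -0.10 (SE 0.07, 95% interval -0.24 to 0.04, edgeR adjusted p = 0.255), and it was negative with each library left out in turn (-0.15 to -0.05). Of VIM's exonic bases, 24.4% lie opposite exons of VIM-AS1 or AL133415.1, whose reads cannot be told apart from VIM's there without strand. VIM-AS1 had a log2 fold change of 0.59 (adjusted p = 0.0709).

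NES was the 1 gene of the 10 that was called lower. NES (chr1:156668763-156677397, minus strand) encodes nestin, a large filament protein of neural and other progenitor cells that assembles with vimentin. Its level was 118, 121 and 135 CPM in siNC and 91.6, 88.9 and 84.2 CPM in siZEB1. Every siZEB1 library was below every siNC library. The siNC level was 1.41-fold that of siZEB1 (log2 fold change -0.50, SE 0.07, 95% interval -0.64 to -0.35, adjusted p = 2.27e-05), and -0.54 to -0.44 on the log2 scale with each library left out in turn.

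Within each group the members tended to be ordered alike. siNC replicate 3 was the highest siNC library for 9 of the 10 genes (for 38.1% of all tested genes), the exception being KRT20. siZEB1 replicate 3 was the lowest siZEB1 library for 8 of the 10 genes (for 38.3% of all tested genes), the exceptions being KRT7 and KRT20. Without siNC replicate 3 the log2 fold change was 0.07 for KRT8, 0.12 for KRT18, 0.11 for KRT23 and -0.05 for VIM. Without siZEB1 replicate 3 it was 0.08, 0.11, 0.12 and -0.05 in the same order. With each library left out in turn, KRT8 ranged from 0.0031 to 0.08 and KRT18 from -0.03 to 0.12. In the same 6 fits KRT23 ranged from 0.04 to 0.12 and VIM from -0.15 to -0.05, and none of these genes was called. The calls of KRT19, KRT80 and NES were the same in all 6 of these fits.

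**Figure D2:**
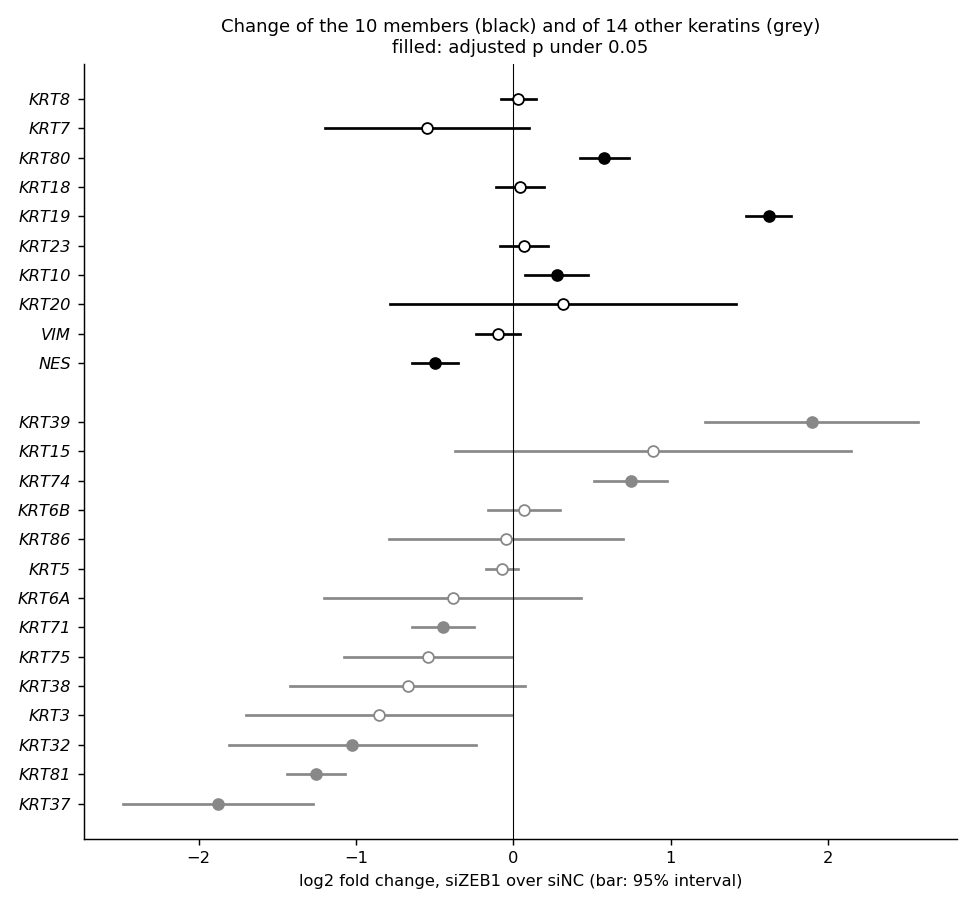
log2 fold change of siZEB1 over siNC with its 95% interval for the 10 members (black) and for the 14 other keratins that were tested (grey), with filled points for an adjusted p under 0.05. KRT19 stands at 1.62 among the members, KRT8, KRT18, KRT23 and VIM lie within 0.1 of 0, and the other keratins spread from -1.88 (KRT37) to 1.90 (KRT39).

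Levels between genes were compared as CPM per kilobase of exons, with siNC means. For levels per kilobase, the base was all counted reads of the library, scaled by the same TMM factors. On this scale KRT8 stood at 501 ± 23.1, KRT18 at 440.0 ± 46.5, VIM at 53.5 ± 3.93, KRT19 at 30.9 ± 0.507, NES at 22.4 ± 1.65, KRT23 at 20.9 ± 1.003, KRT80 at 11.3 ± 0.408, KRT10 at 9.59 ± 0.919 and KRT7 at 0.365 ± 0.0978 CPM per kilobase (SD, n = 3). In this order the ranges over the siNC libraries overlap for KRT8 and KRT18 and for NES and KRT23, although within each siNC library KRT8 was above KRT18 and NES above KRT23. The other neighbours among these genes do not overlap. KRT20, the last member in the order, stood at 0.261 ± 0.229 CPM per kilobase, and its range overlaps that of KRT7. In siZEB1 the mean level of KRT19 was 95.3 ± 7.33 CPM per kilobase, above VIM at 49.998 ± 3.32, so these genes changed places in the order. The lengths used are unions of all annotated exons. With the longest coding transcript instead, KRT8 stood at 1416 and KRT18 at 835 CPM per kilobase in siNC, and VIM at 129 against 51.9 for KRT19. NES and KRT23 changed places on that scale, at 22.4 and 30.5 CPM per kilobase. On that scale too KRT19 was above VIM in siZEB1 (160.2 against 121 CPM per kilobase).

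A keratin outside the 10, KRT5, was as abundant as KRT8 per kilobase of all exons, though not per kilobase of the longest coding transcript (855 against 1416 CPM in siNC). KRT5, the type II keratin of basal epidermal cells, stood at 504 ± 15.1 CPM per kilobase in siNC and 479 ± 19.9 in siZEB1 (log2 fold change -0.07, adjusted p = 0.247). Its usual partner KRT14 had no row in the list of genes, so its level is not known here. Of the summed keratin reads per kilobase in siNC, KRT5 took 32.2% ± 1.03, KRT8 32.0% ± 0.278, KRT18 28.0% ± 1.52 and KRT19 1.98% ± 0.103. In siZEB1 the share of KRT19 was 5.87% ± 0.133, that of KRT5 29.5% ± 0.680, that of KRT8 31.6% ± 0.0963 and that of KRT18 27.9% ± 0.794. All 41 listed keratins together took 0.704% to 0.776% of the reads of a library.

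**Figure D3:**
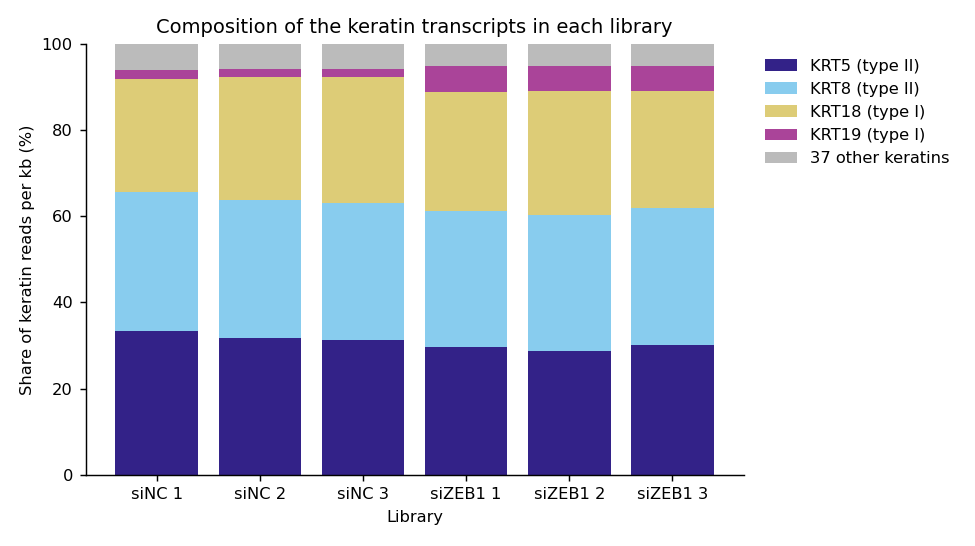
Share of each keratin in the summed keratin reads per kilobase (%) in each of the 6 libraries, stacked from 0 to 100, with the type of each named keratin in the key. KRT19 widens from 1.88 to 2.09% in the siNC libraries to 5.74 to 6.01% in the siZEB1 libraries, while KRT5, KRT8 and KRT18 fill most of every bar.

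Because type I and type II chains pair, their balance was computed within each library. The type I to type II ratio of reads per kilobase was 0.442, 0.485 and 0.499 in siNC and 0.564, 0.582 and 0.543 in siZEB1. Every siZEB1 library was above every siNC library. The mean log2 difference was 0.24, and the exact two-sided permutation test gave p = 0.1, the smallest that 3 against 3 libraries allow. The summed type I level was 506 ± 47.8 CPM per kilobase in siNC and 585 ± 47.3 in siZEB1 over 18 genes, and the summed type II level 1062 ± 39.7 and 1038 ± 50.1 over 23 genes. Keratins without a row are left out of the sums, among them KRT14 and KRT16 of type I and KRT85 of type II. The size of the ratio therefore depends on which genes are listed. With KRT19 left out, the ratio was 0.412, 0.456 and 0.471 in siNC and 0.470, 0.490 and 0.454 in siZEB1, so that the groups overlapped and the log2 difference was 0.08 (exact permutation p = 0.5). With the member keratins alone, KRT19 included, the ratio was 0.977 in siNC and 1.10 in siZEB1 (log2 difference 0.17).

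The ratio of all keratins to VIM was tighter within groups than either level. It was 30.0, 29.1 and 28.8 in siNC and 32.8, 32.0 and 32.6 in siZEB1. The groups do not overlap, with a mean log2 difference of 0.15 and an exact permutation p of 0.1, again the smallest possible. The difference was 0.09 with KRT19 left out, where the groups still did not overlap (28.3 to 29.4 in siNC and 30.1 to 30.9 in siZEB1). It was 0.14 with KRT8 and KRT18 as the only keratins and 0.14 to 0.17 with each library left out in turn. The ratio of KRT18 to KRT8, by contrast, was 0.816, 0.890 and 0.923 in siNC and 0.880, 0.911 and 0.857 in siZEB1 (log2 difference 0.01, exact permutation p = 0.9). Over the 3 ratios tested, Benjamini-Hochberg adjustment of these permutation p-values gives 0.15, 0.15 and 0.9.

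**Figure D4:**
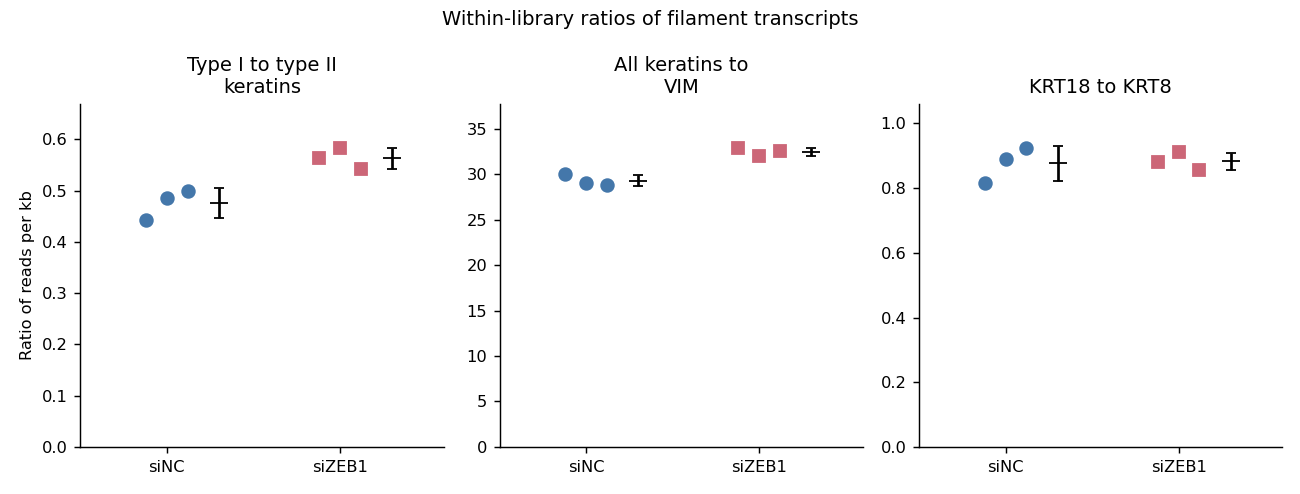
Ratios of reads per kilobase in each library (axes from 0), from left to right type I to type II keratins, all keratins to VIM, and KRT18 to KRT8, with siNC as circles, siZEB1 as squares and the group mean and SD beside them. The first and second ratios are higher in all 3 siZEB1 libraries than in any siNC library (means 0.476 and 0.563, 29.3 and 32.5), and the ratio of KRT18 to KRT8 overlaps.

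The other keratins moved in both directions. Of 47 further keratin genes, 33 had a row and 14 passed the filter, of which 2 were called higher and 4 lower, beside 19% and 21.2% of all genes, with a median log2 fold change of -0.42. KRT81, a type II hair keratin, fell from 45.7 to 19.2 CPM (log2 fold change -1.25, adjusted p = 8.37e-09), and KRT71, a type II keratin of the hair root sheath, fell from 24.0 to 17.6 CPM (log2 fold change -0.45, adjusted p = 9.35e-04). KRT74, a root sheath keratin of the same type, rose from 6.45 to 10.8 CPM (log2 fold change 0.75, adjusted p = 3.92e-05). At lower levels the type I hair keratin KRT39 rose from 0.538 to 2.03 CPM and KRT37 fell from 2.63 to 0.715 CPM. KRT37 had 53, 70 and 44 reads in siNC and 8, 18 and 15 in siZEB1. Of its exonic bases, 39.0% lie opposite exons of AC003958.2, whose reads cannot be told apart from KRT37's there without strand. AC003958.2 was lower too (log2 fold change -1.70, edgeR adjusted p = 2.11e-04). KRT32, called lower at 1.20 against 0.594 CPM (adjusted p = 0.0365), lost its call in 6 of 12 other settings, among them without either siNC replicate 1 (0.104) or 2 (0.193) or any 1 siZEB1 library (0.0752 to 0.0928). KRT15 was not called with all libraries (adjusted p = 0.254) but was without siNC replicate 3 (0.00308).

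Of the other intermediate filament genes, 6 were tested, 3 were called higher and 2 lower, beside 19% and 21.2% of all genes. The nuclear lamin genes split, with LMNB1 rising from 301 to 400.2 CPM (log2 fold change 0.41, adjusted p = 1.79e-05) and LMNB2 from 450.1 to 522 CPM (0.21, adjusted p = 0.00343), and LMNA falling from 629.9 to 525 CPM (-0.26, adjusted p = 0.00280). The lens filament gene BFSP1 (1.48 and 2.42 CPM, adjusted p = 0.0384) and the muscle gene DES (6.02 and 4.51 CPM, adjusted p = 0.0392) were called with all 6 libraries. BFSP1 lost its call without siNC replicate 2 (0.154), siZEB1 replicate 2 (0.102) or siZEB1 replicate 3 (0.169) and with DESeq2 (0.0621) or the replicate block (0.0527), and DES without siNC replicate 2 (0.139) or 3 (0.103) or siZEB1 replicate 2 (0.118) or 3 (0.0850) and with DESeq2 (0.0838) or the block (0.0667). SYNM was not called (adjusted p = 0.426).

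Filament linker genes, which tie filaments to desmosomes and to other cytoskeletal fibres, had 6 of 14 called higher and 5 lower, beside 19% and 21.2% of all genes. Some desmosomal plaque genes were among those that rose. PKP3 (plakophilin 3) rose from 24.1 to 51.3 CPM (log2 fold change 1.09, adjusted p = 3.84e-09), JUP (plakoglobin) from 61.3 to 119 CPM (0.96, adjusted p = 3.30e-08) and PPL (periplakin) from 33.8 to 60.7 CPM (0.84, adjusted p = 1.22e-07). PKP2 (plakophilin 2) rose less, from 193 to 242 CPM (0.33, edgeR adjusted p = 5.79e-04). DSP (desmoplakin) was called higher at 715 and 814 CPM (0.19, edgeR adjusted p = 0.0379), with overlapping groups. The call of DSP was lost in 5 of 12 other settings, and PKP1 was not called (edgeR adjusted p = 0.0690). PLEC (plectin, a linker of keratin and vimentin filaments to hemidesmosomes and actin) fell from 565 to 423 CPM (-0.42, adjusted p = 2.43e-05). EPPK1 (epiplakin) was called higher at 0.747 and 1.40 CPM (adjusted p = 0.0366) and EVPL (envoplakin) lower at 3.89 and 2.67 CPM (adjusted p = 0.0162). EPPK1 lost its call without any 1 of the siNC libraries (0.0520 to 0.105) or siZEB1 replicate 1 (0.261) and with DESeq2 (0.0705) or the replicate block (0.0562), and EVPL without siNC replicate 2 (0.0632) or siZEB1 replicate 1 (0.0669) and with DESeq2 (0.0535).

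Of 11 kinase genes whose products are known to phosphorylate filament proteins, 4 were called higher and 4 lower, again beside 19% and 21.2% of all genes. The mitotic kinase genes AURKB and CDK1 rose from 134 to 182 CPM (log2 fold change 0.44, adjusted p = 9.32e-05) and from 189.9 to 247 CPM (0.38, adjusted p = 5.43e-05). PRKCE, a protein kinase C gene, fell from 32.1 to 24.1 CPM (-0.41, adjusted p = 0.00146) and CDK5, a nestin kinase, from 28.2 to 21.7 CPM (-0.37, adjusted p = 0.00405). PRKCA fell (-0.28) with a call that was lost without siNC replicate 2 (adjusted p = 0.0526), and PAK2 rose (0.28, adjusted p = 0.00200).

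**Figure D5:**
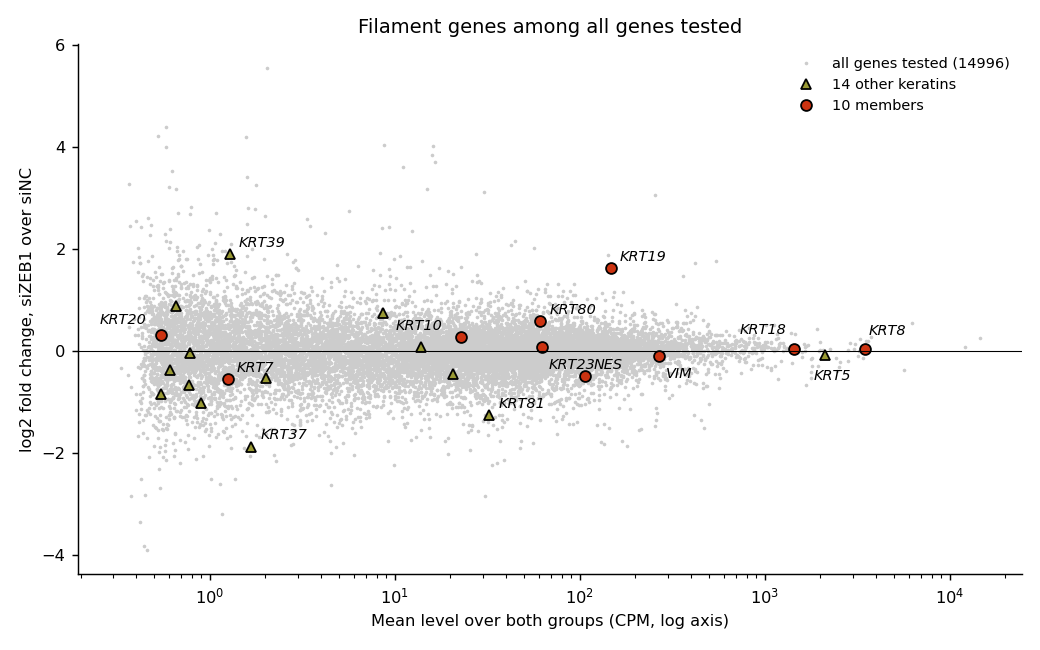
log2 fold change of siZEB1 over siNC against the mean level over both groups (CPM, log axis) for the 14996 genes tested (grey), with the 10 members (red circles) and 14 other keratins (triangles) marked. KRT8, KRT18 and VIM lie near 0 toward the high end of the level axis, KRT19 at 1.62 above most genes of its level, and KRT7 and KRT20 at the low end.

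For KRT8, KRT18 and VIM the genes of at least 10 CPM with the most similar profile over the 6 libraries were listed by Pearson r of log2 CPM among 9029 genes, as a description over few points that share their libraries. They included COTL1 (0.994) and RPL36 (0.994) for KRT8, NDUFS8 (0.992), KAT2A (0.990) and GPR137 (0.987) for KRT18, and SNRNP25 (0.998), VDAC2 (0.994) and VPS18 (0.992) for VIM.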

How the data were processed

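Total RNA of SW480 cells was sequenced on an Illumina instrument, and the deposited files hold raw counts of reads per gene, 1 file per library. The submitters' processing notes name Trimmomatic, HISAT2, SAMtools, featureCounts and hg38. Versions, the gene annotation, the strand setting and the treatment of reads with several matches are not given in the sources used here. Counts were filtered with filterByExpr, scaled by TMM and tested with the quasi-likelihood test of edgeR 4.0.16 in R 4.3.3 (Benjamini-Hochberg over 14996 genes, call at 0.05), without a term for replicate number. The biological coefficient of variation was 6.58%. The labels give 3 replicates per group. The study calls them biological replicates, with independent controls, and does not say whether each had its own culture. Where these are not separate cultures, p-values measure only the spread between these libraries. Exonic lengths, positions and overlaps came from GENCODE 29 (31059 of 32029 gene IDs matched), and the windows before transcription starts from RefSeq. Ratios were compared by exact permutation tests. Named are the 10 members, ZEB1, up to 6 genes per list with the largest called changes, genes needed to account for a list, copies and antisense genes, the 3 most similar profiles, and markers. KRT15 was named after its values were seen. Of the similar profiles, 1 gene is not reported here. Members and lists were chosen with earlier results of these data known. The fit was tested on simulated data. Alternatives were other size factors, other filters, DESeq2 1.42.0, a replicate block, the study's limits of fold 1.5 with an unadjusted p under 0.05 or 0.001, other lengths, and leaving out each library. Intervals cover the spread between libraries only.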

Additional observations from a re-analysis of the deposited data

How the results depend on the processing

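With each library left out in turn, members called higher numbered 2 to 3 and members called lower 1. In the same order, other keratins numbered 2 to 3 and 3 to 4, and other intermediate filament genes 2 to 3 and 1 to 2. Linker genes numbered 4 to 6 and 3 to 5, and kinase genes 3 to 4 and 3 to 4. With all libraries these lists held 10, 14, 6, 14 and 11 tested genes. Of all genes tested with all libraries, 19% were called higher and 21.2% lower. Linker genes called lower fell to 3 without siNC replicate 2, and other filament genes called lower to 1 without siNC replicate 2 or 3 or siZEB1 replicate 2 or 3. The log2 difference of the ratio of KRT18 to KRT8 ranged from -0.039 to 0.050, of the type I to type II ratio from 0.19 to 0.28 and of the keratin to VIM ratio from 0.14 to 0.17. KRT18 ranged from -0.035 to 0.12 and KRT20 from -0.13 to 1.20.

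With a fold change over 1.5 and an unadjusted p under 0.05 in the main fit, 1 of 10 members was higher and 0 lower. Other keratins had 2 of 14 higher and 4 lower, and other filament genes 1 of 6 higher and 0 lower. Linker genes had 5 of 14 higher and 0 lower, and kinase genes 0 of 11 higher and 0 lower. Of all tested genes, 7.21% were higher and 9.35% lower. With p under 0.001, 1 of 10 members was higher and 0 lower, and other keratins had 2 of 14 higher and 2 lower. Other filament genes had 0 of 6 higher and 0 lower, and linker genes 3 of 14 higher and 0 lower. Kinase genes had 0 of 11 higher and 0 lower, beside 4.52% and 6.7% of all genes. These limits drop small changes by their construction. With at least 10 counts in every library, 1 other keratin was higher, fewer genes being tested (2750 of all 13539 were higher). With DESeq2, 1 other filament gene was lower. Over all genes, DESeq2 called 2666 higher and 2850 lower.

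A replicate block changed the call of 1 member: KRT10 had a log2 fold change of 0.27 with an adjusted p of 0.0680 (edgeR). It left 1 other filament gene lower, and called 2289 genes higher and 2679 lower in all. Deviations of same-numbered libraries had correlations of -0.05, -0.09 and -0.20, and no library correlated best with its own number, so the numbers are not taken to pair the libraries. The length of the longest coding transcript, chosen after seeing the data, gave log2 differences of 0.21, 0.15 and 0.01 for the 3 ratios. Leaving out KRT19, also chosen after seeing the data, gave 0.08 for the type I to type II ratio and 0.09 for the keratin to VIM ratio. KRT7 and KRT20 had at most 36 reads in a library and wide intervals, and 3 libraries a group cannot bring an exact permutation test under 0.1.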
